A study of Rattus norvegicus with 5 samples.

Results

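The transcripts described here belong to the pathway by which a cell cuts its own proteins into peptides and shows them on its surface on major histocompatibility complex (MHC) class I molecules. Its members were *Psmb8*, *Psmb9*, *Tap1*, *Tap2*, *B2m* and *RT1-S3*, and every array probe set that the platform annotation gives to a single one of these genes was taken, which made 10 of the 8740 non-control probe sets and 6 of the 4736 genes named on the array. Cells from the hypothalamus of Wistar rat embryos at day 17 had been grown as primary cultures, and 3 populations were hybridized to Affymetrix rat U34A arrays. GFP+ cells (2 arrays) were transfected, with polyethylenimine as carrier, with a plasmid in which a minimal promoter of *Trh*, the gene of thyrotropin-releasing hormone, drives green fluorescent protein (GFP), and were sorted for GFP. GFP+/- cells (2 arrays) came from the same kind of transfected culture and went through the sorter without selection, so GFP-positive and GFP-negative cells were mixed. NT cells (1 array) received no plasmid, and the sources used here do not say that they went through the sorter. Transfection, the sorter and a lone array therefore cannot be told apart in any comparison with NT cells. GFP+ cells were chosen by the activity of a short promoter on a plasmid and not by endogenous *Trh*. The GFP+ RNA was a pool of 6 experiments, and the GFP+/- and NT RNAs were pools of 3.

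Peptides for class I display are cut in the cytosol by the proteasome. In cells exposed to interferon, the catalytic subunits PSMB8 and PSMB9 replace the standard ones and form the immunoproteasome. The transporter made of TAP1 and TAP2 carries the peptides into the endoplasmic reticulum, where they are loaded on a class I heavy chain bound to beta-2-microglobulin, the product of *B2m*. RT1-S3 is such a heavy chain, one of the non-classical class I molecules of the rat RT1 complex. Neurons are known for low class I levels at rest and for raising them under interferon.

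*Tap2*, *Psmb8*, *Tap1* and *Psmb9* are neighbours, in this order, on rat chromosome 20, which also carries *RT1-S3*, whereas *B2m* is on chromosome 3. The RefSeq promoters of the 6 genes (assembly GRCr8, 250 bases before and 50 after the start) were searched on both strands for 4 motifs. They are shown because the 6 transcripts are read as one pathway and because the interferon-stimulated response element, a site bound by interferon regulatory factors, is known from class I genes. The letters GAAANNGAAA of that element were found in 5 of the 6 promoters and in 3.92% of all 33469 promoters of the same length. The exception was *Psmb9*. Its window did not reach the *Tap1* match, which lies between the starts of these neighbouring genes. Positions count from a single start per gene. The RefSeq gene records of several members, among them *RT1-S3*, *B2m* and *Psmb8*, begin upstream of the start used. The *Psmb8* match lies inside its gene record. The 5 matches, in capitals with 10 bases on either side, were:
RT1-S3, chr20:2675406-2675435, plus strand, match from base -112: ctcctgctgcTTTCTCTTTCataaagacac
B2m, chr3:129549170-129549199, plus strand, match from base -150: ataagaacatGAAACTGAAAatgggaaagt
Tap1, chr20:4668645-4668674, minus strand, match from base -121: cggtggctgcTTTCGGTTTCttcttcctct
Tap2, chr20:4652318-4652347, minus strand, match from base -41: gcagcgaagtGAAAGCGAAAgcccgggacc
Psmb8, chr20:4657016-4657045, minus strand, match from base -4: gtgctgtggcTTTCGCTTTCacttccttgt

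A gamma-activated site (TTCNNNGAA), bound by STAT factors, was matched in 1 of 6 member promoters, that of *Psmb8*, and in 8.87% of all promoters. The core of a cAMP response element (TGACG) was matched in 2 of 6, *B2m* and *Psmb9*, and in 21.2% of all. For NF-kappaB, the letters GGGNNNTTCC, chosen after the promoters had been read, were matched in 2 of 6, *B2m* and *Tap1*, and in 5.37% of all, whereas the shorter GGGNNTTCC was matched in 0 of 6 and in 5.92% of all. In *B2m* the kappaB match began at base -137, just after the response element at -150. The *Tap1* and *Psmb9* windows overlap by 44 bases. The 250 bases before the *Tap1* start (chr20:4668544-4668793, minus strand) hold the response element and the kappaB match, both in capitals, and are printed because *Tap1* gave one of the largest differences from NT cells:
Tap1: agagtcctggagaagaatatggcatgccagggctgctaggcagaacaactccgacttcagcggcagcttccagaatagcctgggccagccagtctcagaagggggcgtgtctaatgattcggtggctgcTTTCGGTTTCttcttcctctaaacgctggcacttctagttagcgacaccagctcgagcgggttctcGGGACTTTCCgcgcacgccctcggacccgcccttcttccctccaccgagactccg
These matches describe letters only, and binding was not measured.

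Each value below is a MAS5 signal, a linear intensity that the authors scaled by one factor per array. The mean signal after 2% was trimmed from either end was 500 on every array. Differences are given on the log2 scale with their standard error (SE) from limma, fitted on all 8740 probe sets and 5 arrays, with p-values adjusted by Benjamini-Hochberg over all of them, and a transcript is said to be higher, lower or changed where adjusted p was under 0.05. By the study's methods one pooled RNA was split over the arrays of a population, although the labels call them biological replicates, so the p-values measure how far arrays of one pool differ and may be too small for separate cultures. The comparisons with NT cells share the one NT array, whose spread was taken to equal that of the other populations. The 3' over 5' signal ratio of *Gapdh*, a measure of RNA and target quality, was 14.6 and 17.6 on the GFP+ arrays, 12.7 and 14.2 on the GFP+/- arrays and 5.45 on the NT array, and that of beta-actin was 14.4 to 31.4 on the transfected arrays and 10.9 on the NT array. Their part in the differences from NT cells was not tested. In such mixed cells, fewer cells of a type and less RNA per cell cannot be told apart.

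**Figure D1:**
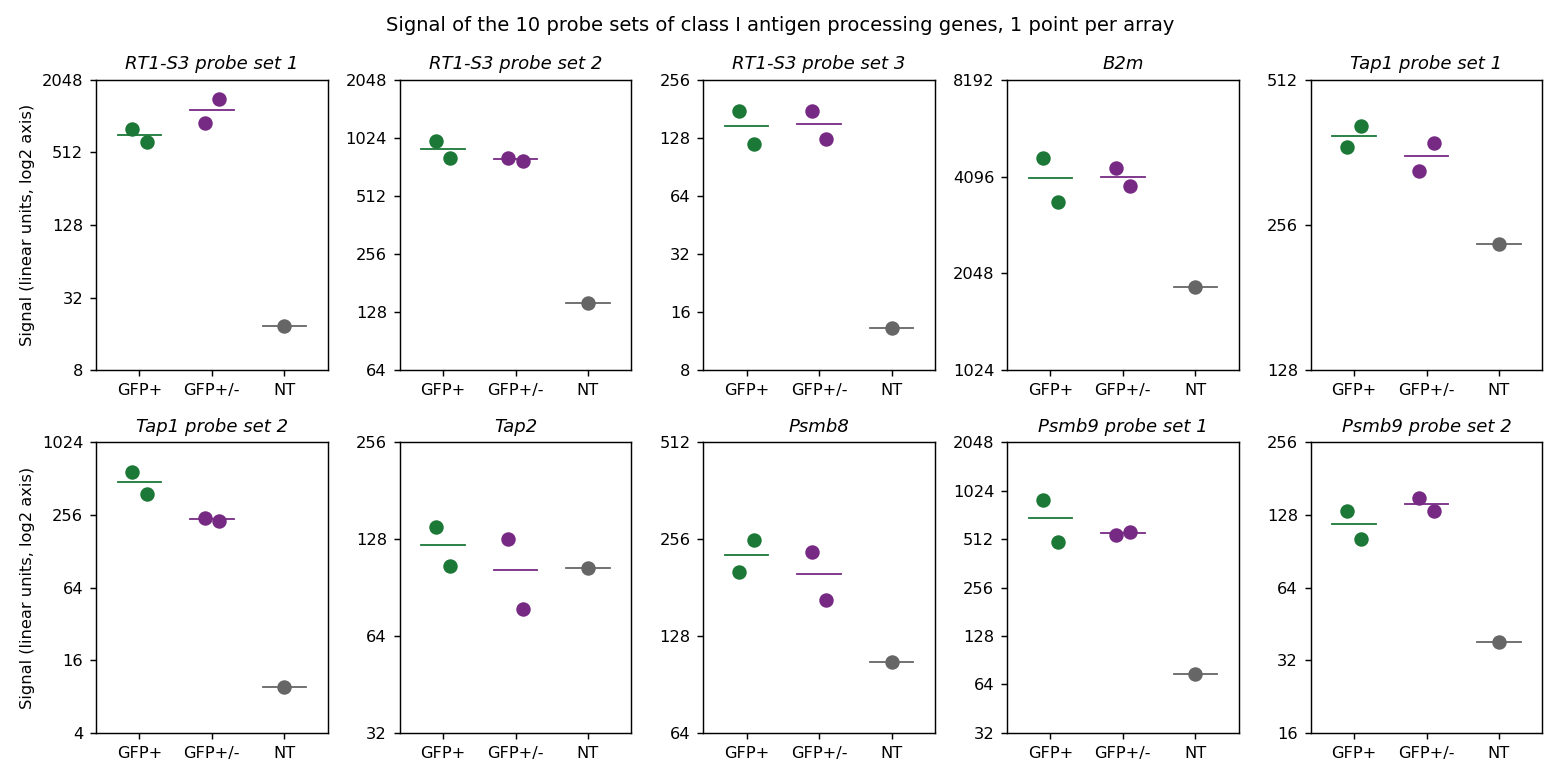
Signal of each of the 10 probe sets (linear units on a log2 axis, one range per panel) in GFP+, GFP+/- and NT cells, with 1 point per array and a line at the mean of each population. The NT point lies below all 4 points of transfected cells in 9 of the 10 panels, and in the *Tap2* panel it lies among them.

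The immunoproteasome subunit transcript *Psmb9* was higher in both transfected populations than in NT cells, and *Psmb8* was not past the test. *Psmb9* probe set 1 had signals of 901 and 496 on the GFP+ arrays, 545 and 569.5 on the GFP+/- arrays and 73.9 on the NT array. The 4 arrays of transfected cells lay far above NT, and the GFP+ arrays spanned the GFP+/- ones. The log2 difference from NT was 3.18 in GFP+ cells (SE 0.38, adjusted p = 0.0149) and 2.91 in GFP+/- cells (SE 0.38, adjusted p = 0.0157). *Psmb9* probe set 2 had 133 and 102 in GFP+, 151 and 133 in GFP+/- and 38.0 on the NT array. Here too the NT array was the lowest of the 5. The difference from NT passed in GFP+/- cells (1.90, SE 0.39, adjusted p = 0.0416) and missed the threshold in GFP+ cells (1.62, SE 0.39, adjusted p = 0.0662). The GFP+/- call was lost with 16 added to each signal (1.55, adjusted p = 0.0543) and without GFP+ array 1 (adjusted p = 0.0732) or 2 (adjusted p = 0.0696).

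*Psmb8*, which encodes the other immunoproteasome subunit measured, had signals of 202 and 254 in GFP+, 234 and 166 in GFP+/- and 106 on the NT array. All 4 arrays of transfected cells were above NT, and the GFP+ and GFP+/- arrays overlapped. Its log2 difference from NT was 1.09 in GFP+ cells (SE 0.35, adjusted p = 0.126) and 0.89 in GFP+/- cells (SE 0.35, adjusted p = 0.193). When only the brightest 41% of probe sets were fitted, those with a mean signal above 175 over the 5 arrays, which hold 7 of the 10 member probe sets, the *Psmb8* difference of GFP+ cells passed (adjusted p = 0.0431) and that of GFP+/- cells did not (adjusted p = 0.0877). The probe set of *Psmb8* is of a type that may hold probes shared with similar transcripts.

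The transporter gene *Tap1* has 2 probe sets, which disagreed in size. *Tap1* probe set 2 had signals of 580.2 and 385 in GFP+, 244 and 230.0 in GFP+/- and 9.59 on the NT array. The order was GFP+ above GFP+/- above NT, with no overlap. Its log2 difference from NT was 5.62 in GFP+ cells (SE 0.36, adjusted p = 0.00808) and 4.63 in GFP+/- cells (SE 0.36, adjusted p = 0.00978). *Tap1* probe set 1 had 372 and 411 in GFP+, 332 and 379 in GFP+/- and 234 on the NT array. Its NT array was again the lowest, and here the GFP+ and GFP+/- arrays overlapped. The log2 difference from NT was 0.74 in GFP+ cells (SE 0.24, adjusted p = 0.131) and 0.60 in GFP+/- cells (SE 0.24, adjusted p = 0.202), and neither passed. By their names both probe sets are built on the same transcript sequence, so *Tap1* was higher than in NT cells by one reading and not past the test by the other.

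*Tap2*, which encodes the partner subunit of the transporter, showed no separation of the populations. It had signals of 140.1 and 106 in GFP+, 129 and 77.5 in GFP+/- and 104 on the NT array. The NT array lay between the GFP+/- arrays and just below the GFP+ ones. The log2 difference from NT was 0.23 in GFP+ cells (SE 0.46, 95% interval -0.92 to 1.38, adjusted p = 0.832) and -0.057 in GFP+/- cells (SE 0.46, 95% interval -1.20 to 1.09, adjusted p = 0.964). These intervals leave room for a change of 2-fold in either direction in GFP+/- cells.

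*B2m*, the light chain that every class I molecule needs, had signals of 4673 and 3419 in GFP+, 4347 and 3825 in GFP+/- and 1851 on the NT array. The arrays of GFP+ and GFP+/- cells overlapped, and all were above NT. The means were 4046 ± 886 (SD, n = 2 arrays) in GFP+ and 4086 ± 369 (SD, n = 2 arrays) in GFP+/- cells, 2.19-fold and 2.21-fold the NT signal. The log2 difference from NT was 1.11 in GFP+ cells (SE 0.26, adjusted p = 0.0604) and 1.14 in GFP+/- cells (SE 0.26, adjusted p = 0.0546), both just above the threshold. The call turned on the processing. Both passed among the brightest 41% of probe sets (adjusted p = 0.0132 for GFP+ and 0.0108 for GFP+/- cells) and under quantile normalization (adjusted p = 0.0441 and 0.0474), and that of GFP+/- cells also at equal medians (adjusted p = 0.0417) and with 16 added (adjusted p = 0.0498).

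*RT1-S3*, the heavy chain gene, was higher in both transfected populations than in NT cells on each of its 3 probe sets. Probe set 1 had signals of 793 and 629 in GFP+, 892 and 1428 in GFP+/- and 18.8 on the NT array. Here the GFP+ arrays were both below the GFP+/- arrays. The log2 difference from NT was 5.23 in GFP+ cells (SE 0.35, adjusted p = 0.00808) and 5.91 in GFP+/- cells (SE 0.35, adjusted p = 0.00514). Probe set 2 had 982 and 801 in GFP+, 809 and 776 in GFP+/- and 142 on the NT array. The GFP+ and GFP+/- arrays overlapped and the NT array was lower. Its log2 differences from NT were 2.64 in GFP+ cells (SE 0.23, adjusted p = 0.00808) and 2.48 in GFP+/- cells (SE 0.23, adjusted p = 0.0109). Probe set 3 had 175 and 119 in GFP+, 177 and 126 in GFP+/- and 13.3 on the NT array. The arrangement was the same as for probe set 2. The log2 differences from NT were 3.44 in GFP+ cells (SE 0.46, adjusted p = 0.0168) and 3.49 in GFP+/- cells (SE 0.46, adjusted p = 0.0165). Some class I genes are closely similar in sequence, and probe set 1 is of a type that can share probes with other transcripts. The part of these signals that comes from *RT1-S3* itself is therefore uncertain.

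**Figure D2:**
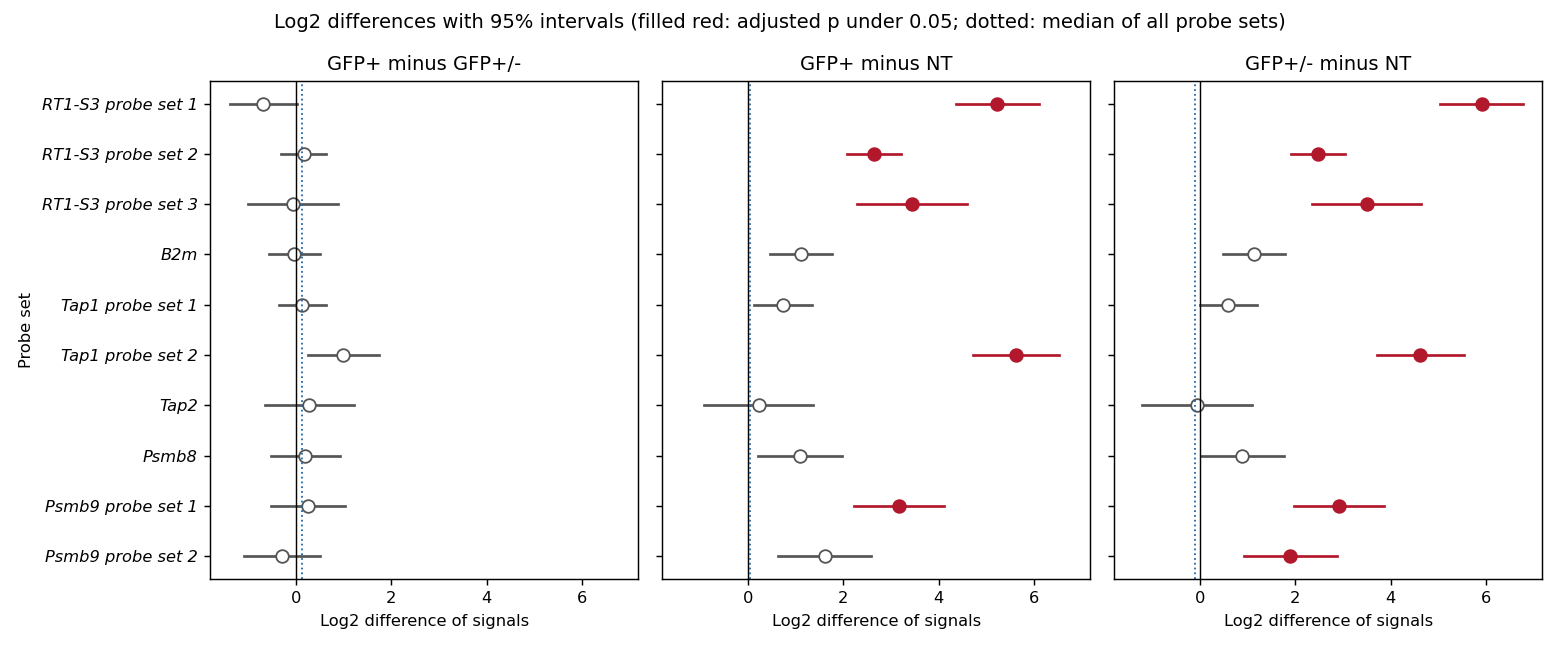
Log2 differences (horizontal axis) of the 10 probe sets (rows) between GFP+ and GFP+/- cells, GFP+ and NT cells, and GFP+/- and NT cells, with 95% intervals from limma. Filled red points have an adjusted p under 0.05, and the dotted line is the median of all 8740 probe sets: 0 points are filled for GFP+ minus GFP+/-, 5 for GFP+ minus NT and 6 for GFP+/- minus NT.

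The NT signals behind the largest differences were low, against a median signal of 112 on that array, and were not shown to be above background, so the size of these differences is uncertain. Where 16 was added to each signal before log2, the difference of *Tap1* probe set 2 from NT was 4.26 in GFP+ and 3.30 in GFP+/- cells, that of *RT1-S3* probe set 1 was 4.38 and 5.04, and that of *RT1-S3* probe set 3 was 2.46 and 2.50. All 6 of these passed (adjusted p from 0.00726 to 0.0269), whereas *Psmb9* probe set 2 lost its call in this setting.

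Of the 10 member probe sets, 5 were higher in GFP+ than in NT cells (adjusted p under 0.05), where 4.38% of all 8740 probe sets were. They stand for *Psmb9*, *Tap1* and *RT1-S3*. By the ratio of averaged signals, 8 of 10 were more than 2-fold higher in GFP+ cells, where 14.5% of all were, and in 10 of 10 both GFP+ arrays were above the NT array, where 41.5% of all were. The median log2 difference of the members was 2.13, and that of all probe sets 0.056. In GFP+/- against NT cells, 6 of 10 were higher, where 4.2% of all were, and they stand for the same 3 genes. Here 7 of 10 were more than 2-fold higher, where 12.1% of all were, and 9 of 10 had both GFP+/- arrays above the NT array, where 35.2% of all did. The exception was *Tap2*. The median was 2.19 for the members and -0.094 for all. No member probe set was lower in either comparison, where 4.06% of all were lower in GFP+ and 5.03% in GFP+/- cells. With a prior variance that takes no account of the signal, 0 of 10 passed in either comparison (lowest adjusted p = 0.0659 for GFP+ and 0.0658 for GFP+/- minus NT). The calls also depended on single arrays. Without either GFP+ array, or without either GFP+/- array, 0 of 10 passed for GFP+ minus NT, with the lowest adjusted p from 0.0546 to 0.0732, in fits with 1 residual degree of freedom. For GFP+/- minus NT, 5 of 10 passed without a GFP+ array and 0 of 10 without a GFP+/- array, with the lowest adjusted p of 0.0845 and 0.110.

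**Figure D3:**
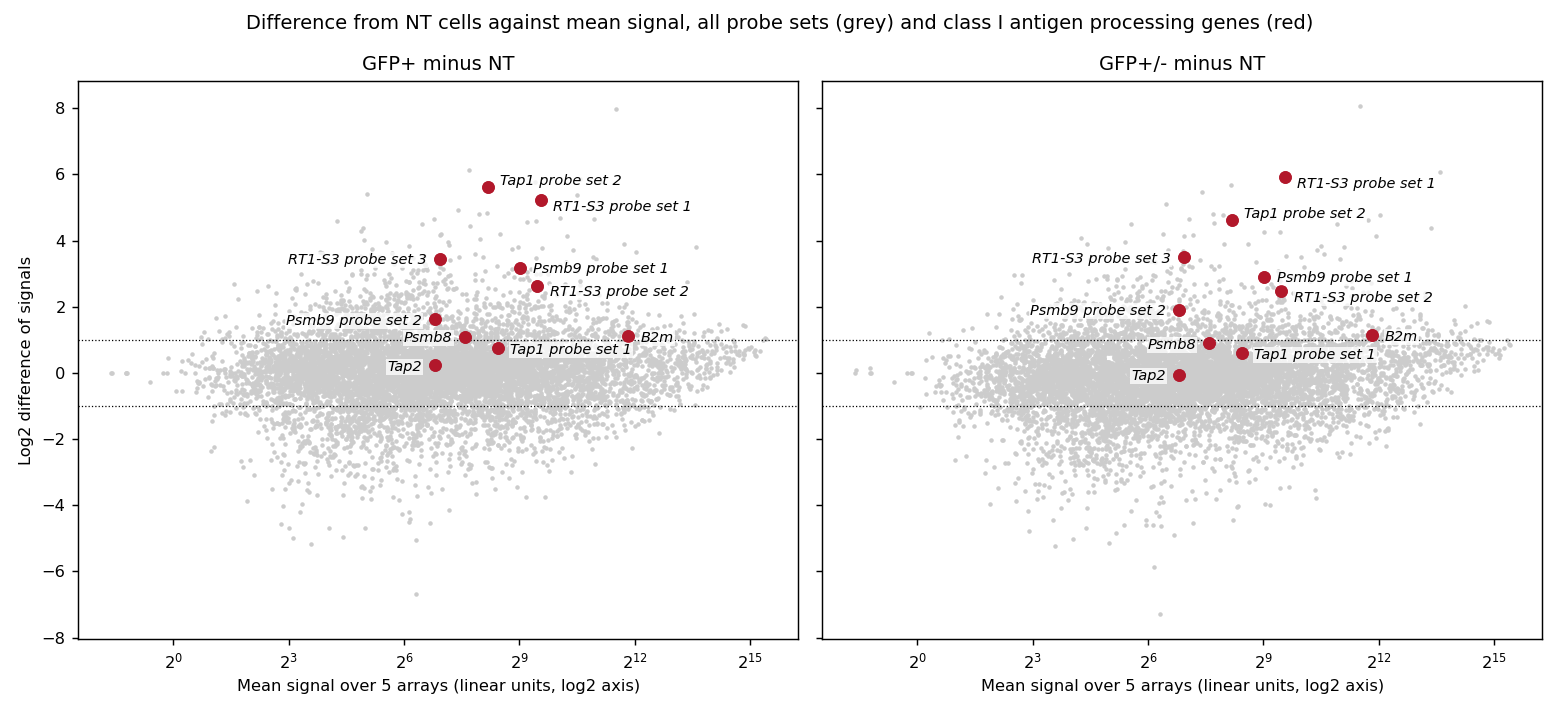
Log2 difference from NT cells (vertical axis) against mean signal over the 5 arrays (linear units on a log2 axis) for all 8740 probe sets in grey and the members in red, for GFP+ cells on the left and GFP+/- cells on the right. Dotted lines mark 2-fold differences. *Tap1* probe set 2 and *RT1-S3* probe set 1 lie at the upper edge of the cloud in both panels, whereas *Tap2* lies within it near 0.

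Between the sorted and the unselected transfected cells no member passed the test. In GFP+ against GFP+/- cells, 0 of 10 member probe sets passed in the higher direction, where 0% of all did, and limma also called 0 lower. At an unadjusted p under 0.05 there was 1 member, and 1215 of all 8740 probe sets. That member was *Tap1* probe set 2, which had both GFP+ arrays above both GFP+/- arrays, a ratio of averaged signals of 2.04 and a log2 difference of 1.00 (SE 0.30, adjusted p = 0.257). It was the only one of 10 past 2-fold, where 8.89% of all probe sets were past 2-fold in this direction, and the only one with every GFP+ array above every GFP+/- array, where 30.4% of all were. *Tap1* probe set 1 had a difference of 0.14 (SE 0.20, adjusted p = 0.803). *RT1-S3* probe set 1 stood at the other end, with a log2 difference of -0.68 (SE 0.28, adjusted p = 0.369). It was 1 of 2 with every GFP+ array below every GFP+/- array, where 15.4% of all probe sets were, beside *Psmb9* probe set 2 (-0.28, SE 0.32, adjusted p = 0.745), where one GFP+ and one GFP+/- array both read 133 after rounding. The differences of the other probe sets lay between -0.052 (*RT1-S3* probe set 3) and 0.29 (*Tap2*). The 95% interval was -0.56 to 0.50 for *B2m*, -0.30 to 0.62 for *RT1-S3* probe set 2, -0.51 to 0.92 for *Psmb8* and -0.51 to 1.03 for *Psmb9* probe set 1. The median of the members was 0.15, and that of all probe sets 0.13. Scaling the arrays to one median moved the median of all probe sets to -0.029, and quantile normalization to -0.0054.

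Arrays of one population also differed from each other over the member probe sets, some of which belong to the same gene. In GFP+ cells, array 1 was higher than array 2 in 8 of 10 member probe sets, with a median log2 difference of 0.40. Of all probe sets, it was higher in 47.8%, with a median of -0.025. *Psmb9* probe set 1 differed most, by 0.86. Between the GFP+/- arrays, array 1 was higher in 7 of 10, with a median of 0.13 and a range of -0.68 to 0.73, where it was higher in 47.0% of all probe sets, with a median of -0.032. In GFP+ cells, *Psmb8* and *Tap1* probe set 1 went the other way.

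Few other genes that act with the members passed the test. Of 8 genes of peptide loading and assembly, 4 were measured (*Calr*, *Canx*, *Pdia3* and *Hspa5*), each read, as are all genes below, from its brightest probe set. Only *Hspa5*, a general chaperone of the endoplasmic reticulum, passed, and only for GFP+ minus NT. It had 7525 and 9317 in GFP+, 3547 and 3307 in GFP+/- and 2431 on the NT array, a log2 difference of 1.78 between GFP+ and NT cells (adjusted p = 0.0158). The median difference from NT was 0.51 in GFP+ and 0.41 in GFP+/- cells. Among catalytic and activator subunits of the proteasome, 4 of 8 were measured, and *Psme1*, a subunit of the interferon-induced activator that opens the proteasome, was higher in both transfected populations. It had signals of 6549 and 6144 in GFP+, 7343 and 5831 in GFP+/- and 2844 on the NT array, with log2 differences from NT of 1.16 (adjusted p = 0.0448) and 1.20 (adjusted p = 0.0372). *Psme2*, its partner, had 0.57 in GFP+ cells (adjusted p = 0.291), and *Psmb5*, a standard catalytic subunit, had 0.42 (adjusted p = 0.372).

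The other subunits of the proteasome core are shared by its standard and immune forms. Of 11 such subunits 10 were measured, with a median difference from NT of -0.030 in GFP+ and 0.30 in GFP+/- cells. The one that passed was *Psma1*, which was lower, with 395 and 488 in GFP+, 618 and 549 in GFP+/- and 2096 on the NT array. Its log2 differences from NT were -2.26 (adjusted p = 0.0113) and -1.85 (adjusted p = 0.0152).

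Of 24 other class I and class I-like genes, 12 were measured, of which *RT1-A* and *RT1-M5* were added after their values had been seen. The heavy chain gene *RT1-CE16* had 1974 and 1396 in GFP+, 1583 and 1399 in GFP+/- and 781 on the NT array, with log2 differences from NT of 1.09 (adjusted p = 0.0673) and 0.93 (adjusted p = 0.0946). *RT1-CE12* had 1.04 (adjusted p = 0.0678) and 0.98 (adjusted p = 0.0744), and *RT1-A* had 0.80 (adjusted p = 0.130) and 0.87 (adjusted p = 0.104). None of these 3 passed, and their probe sets are marked as sharing probes across a gene family, so one transcript may feed several. The genes *RT1-M3-1*, *RT1-N3* and *RT1-A3* had negative differences from NT, none past the test. The signals of *RT1-N3* and *RT1-A3* were low, at most 55.9 on any array, so their signs are uncertain. Of the 12 genes, 5 were among the brightest 41% of probe sets. *Fcgrt*, a class I-like receptor that carries antibodies, passed only for GFP+/- minus NT (1.24, adjusted p = 0.0220), and the list's median was 0.048 in GFP+ and -0.029 in GFP+/- cells. Genes of class II presentation, which load peptides from outside the cell, were measured for 10 of 11. Of these *Ctss*, the protease cathepsin S, was lower, by log2 differences of -2.70 in GFP+ (adjusted p = 0.0149) and -3.23 in GFP+/- cells (adjusted p = 0.0109), and 0 of 10 were higher.

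Interferon signalling and interferon-induced genes were measured for 17 of 27. In each transfected population 5 were higher than in NT cells, namely *Irf1*, *Irf7*, *Oas1a*, *Gbp2* and *Ifitm3*, and 0 were lower. The NT signals of *Irf7* (28.2) and *Gbp2* were low against the NT median of 112, so the size of their differences is uncertain. *Ifngr1*, also of low signal, had differences from NT of -3.33 in GFP+ and -3.15 in GFP+/- cells and did not pass (adjusted p = 0.0596 and 0.0650). *Irf1*, a transcription factor that acts on class I genes, had 1229 and 1011 in GFP+, 760.4 and 797 in GFP+/- and 223 on the NT array. Its differences from NT were 2.32 (adjusted p = 0.0104) and 1.81 (adjusted p = 0.0149), with no overlap between the populations. *Gbp2*, a guanylate-binding GTPase, had 612 and 161 in GFP+, 129 and 124 in GFP+/- and 4.48 on the NT array. The GFP+ arrays disagreed with each other here, with array 1 high. *Ifnb1*, which encodes interferon beta, had 32.3 and 25.1 in GFP+, 33.9 and 21.7 in GFP+/- and 6.31 on the NT array and did not pass (adjusted p = 0.0963 and 0.102). These *Ifnb1* signals were far below the array medians of 102 to 116 and were not shown to be above background, so its differences are uncertain. The median difference of the list from NT was 1.91 in GFP+ and 1.12 in GFP+/- cells, and between GFP+ and GFP+/- cells it was 0.41. The list's summed signal was 10468 and 7133 on the GFP+ arrays, 7190 and 6951 on the GFP+/- arrays and 2386 on the NT array. GFP+ array 2 thus lay close to the GFP+/- arrays. As for *Gbp2*, array 1 was far above array 2 in GFP+ cells for *Cxcl10* (829 and 262) and *Mx1* (737 and 231). Of 7 NF-kappaB genes 2 were measured. *Nfkbia*, the inhibitor that NF-kappaB itself induces, was higher than in NT cells by 2.58 in GFP+ (adjusted p = 0.00808) and 1.94 in GFP+/- cells (adjusted p = 0.0136), and *Nfkb1* by 1.48 in GFP+ cells (adjusted p = 0.0332), with 1.02 in GFP+/- cells (adjusted p = 0.0772).

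**Figure D4:**
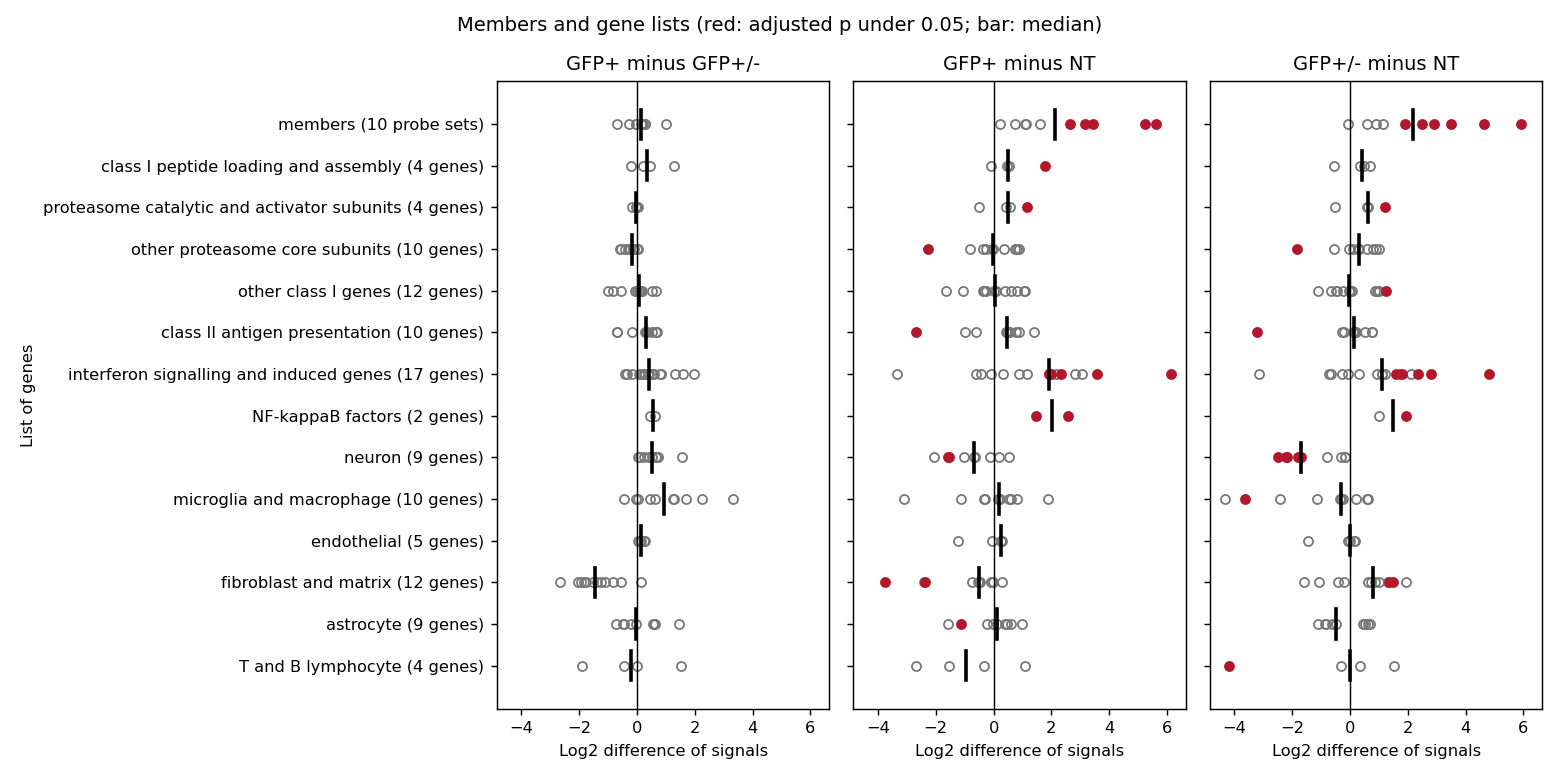
Log2 differences (horizontal axis) of the member probe sets and of the genes of 13 lists (rows), one point per probe set or gene, with a bar at the median. Filled red points have an adjusted p under 0.05. For GFP+ minus GFP+/- 0 points are filled in any row, and against NT cells the members and the interferon list have the most filled points to the right of 0.

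Markers of cell types differed between the populations as well. Neuronal transcripts were present in all populations, with *Mapt*, the gene of tau, at 12752 and 10426 in GFP+, 7321 and 8967 in GFP+/- and 10041 on the NT array. Of 9 neuronal markers measured, 2 were lower than in NT in GFP+ cells (*Nefm* and *Uchl1*) and 0 were higher. In GFP+/- cells 5 were lower (*Map2*, *Nefl*, *Nefm*, *Snap25* and *Uchl1*) and 0 were higher. Of all 8740 probe sets, 4.06% were lower than in NT in GFP+ cells and 5.03% in GFP+/- cells. These shares also stand beside the lower calls of the other lists. The median log2 difference of the neuronal markers from NT was -0.67 in GFP+ and -1.70 in GFP+/- cells, so *Mapt* does not stand for the list. Of 12 fibroblast and matrix markers, 2 were lower than in NT in GFP+ cells, and 2 (*Bgn* and *Postn*) were higher than in NT in GFP+/- cells. Their summed signal was 15686 and 21881 on the GFP+ arrays, 46077 and 45374 on the GFP+/- arrays and 20795 on the NT array. Microglia and macrophages, which carry more class I than neurons do, had 10 of 14 markers measured, with a summed signal of 1223 and 1114 in GFP+, 778 and 608 in GFP+/- and 1009 on the NT array. The transfected arrays thus lay on both sides of the NT array. The marker *Itgam* had 24.8 and 15.3 in GFP+, 2.39 and 1.58 in GFP+/- and 24.2 on the NT array. These signals were far below the array medians of 102 to 116, so the size of its differences is uncertain. *Csf1r* had 219 and 221 in GFP+, 84.6 and 25.7 in GFP+/- and 59.1 on the NT array. *C1qb* had 90.9 and 10.2 in GFP+, 10.2 and 16.6 in GFP+/- and 262 on the NT array. Of the 10 markers, 6 had a positive difference from NT in GFP+ cells and 3 in GFP+/- cells. The only microglial marker that passed was *Itgam*, which was lower in GFP+/- than in NT cells (adjusted p = 0.0292). Endothelial markers (5 of 10 measured) had 0 past the test, with sums of 418 and 538 in GFP+, 394 and 480.4 in GFP+/- and 457 on the NT array. Of 9 astrocyte markers *Aldoc* was lower in GFP+ than in NT cells (adjusted p = 0.0341), and among the 4 of 7 lymphocyte markers measured *Cd8a* was lower in GFP+/- than in NT cells. The part of these cell types in the members' differences was not tested.

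Likeness to the brightest probe set of each member was measured over the 5 arrays as the distance between centred log2 signals, among the brightest 41% of probe sets with a single gene. With 5 arrays this describes a shape and nothing more. Nearest to *B2m* were *Cebpd* (0.095), the class I gene *RT1-CE12* (0.15) and *Slc11a2* (0.17). *Psmb9* probe set 1 was nearest to *Irgm2*, an immunity-related GTPase (0.40), then to *Kctd13* (0.43) and *Nell2* (0.50). *RT1-S3* probe set 1 had no close match, the nearest being *Slc7a1* (0.95), *Nfix* (1.09) and *Glg1* (1.35). *Tap1* probe set 1 was nearest to *Myl6*, *Bend3* and *Arl6ip4* (0.14 to 0.15), *Psmb8* to *Fkbp1a*, *Prpsap1* and *Cuta* (0.18 to 0.27), and *Tap2* to *Tst*, *Chchd6* and *Ptov1* (0.17 to 0.19).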

How the data were processed

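The 5 rat U34A arrays carried RNA of GFP+ (2 arrays), GFP+/- (2) and NT cells (1), with 16 probe pairs per probe set. The authors used MAS5, per the labels, to reduce the probe pairs to a linear signal intensity, scaled by one factor per array. The deposited signals had a trimmed mean near 500, whereas the study's methods give another target. The table of 8799 probe sets held 59 controls, which were left out. Of the other 8740, 7006 had 1 gene in the platform annotation, 308 several and 1426 none. No genome build applies to the arrays, and RefSeq tables of GRCr8 gave gene names and promoter sequences. All 6 members were found in them.

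Signals under 1 were set to 1 and taken to log2. Differences were tested with limma 3.58.1 (R 4.3.3), with one mean per population and all arrays in the same fit, no covariate, an intensity trend in the prior variance and 2 residual degrees of freedom, with Benjamini-Hochberg adjustment over 8740 probe sets and 0.05 as the threshold. The ratio of averaged signals with a 2-fold threshold, the study's measure, was also counted. The arrays carry no read depth, so their number limits the precision.

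All member probe sets were named, and of each gene list the genes that passed and a few others, some chosen after their values had been seen. Members, lists and motifs were chosen with earlier results of these data known, so they give no independent support. Likeness was taken as Euclidean distance to the 3 nearest genes.

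As alternatives, the arrays were quantile normalized or shifted to equal medians, 16 was added before log2, the fit was limited to the brightest 41% of probe sets or to the transfected populations, the trend was dropped from the prior, a replicate block was added, and the transfected arrays were left out one at a time. Python 3.11.15 (matplotlib 3.10.9, numpy 2.4.6, pandas 2.3.3) served for tables and plots.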

Additional observations from a re-analysis of the deposited data

How the results depend on the processing

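Against NT cells the members' calls rested on the number of arrays, on the variance model and, for *B2m* and *Psmb9* probe set 2, on the scaling or the offset. For GFP+ minus NT, 5 member probe sets passed, and 6 under quantile normalization. For GFP+/- minus NT, 6 passed, and 7 under quantile normalization and at equal medians. With 16 added 6 still passed, with a *B2m* call gained and a *Psmb9* call lost. Of all probe sets, 738 were called for GFP+ minus NT and 807 for GFP+/- minus NT, and with a prior without a trend 2 in each, with 0 member probe sets and a lowest member adjusted p of 0.0659 and 0.0658. Leaving out one array gave 1 call in all 4 fits of GFP+ minus NT and 1 to 333 of GFP+/- minus NT, where leaving out a GFP+ array gave 323 or 333. These fits have fewer degrees of freedom. Among the brightest 41%, 1133 were called for GFP+ minus NT, and 144 for GFP+ minus GFP+/-, where 0 passed over all probe sets. A replicate block gave 2 calls for GFP+ minus GFP+/- and 0 members. Deviations of equally numbered arrays correlated at 0.063 over all probe sets and at 0.20 among the brightest 41%. No label says that a number marks a shared batch, so the arrays were not treated as paired.

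The median of the members for GFP+ minus NT was 2.13, and 1.88 with 16 added, 2.64 among the brightest 41% and 1.96 to 2.30 without one array. For GFP+/- minus NT it was 2.19, and 1.95 and 2.48 under the first 2 of these. For GFP+ minus GFP+/- it was 0.15, and -0.0050 at equal medians and -0.077 to 0.21 without one array.

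For GFP+ minus GFP+/-, 6 probe sets had no firm sign. Without one array, the difference ran from -0.25 to 0.20 for *B2m*, from -0.33 to 0.23 for *RT1-S3* probe set 3, from -0.043 to 0.45 for *Psmb8*, from -0.079 to 0.65 for *Tap2* and from -0.17 to 0.69 for *Psmb9* probe set 1. The opposite sign to that over all arrays came without GFP+ array 2 (0.20) or GFP+/- array 1 (0.064) for *B2m*, without the same arrays (0.23 and 0.19) for *RT1-S3* probe set 3, without GFP+/- array 2 for *Psmb8* and *Tap2*, and without GFP+ array 1 for *Psmb9* probe set 1. *B2m* also gave 0.031 under quantile normalization and *Tap1* probe set 1 gave -0.016 at equal medians. For GFP+/- minus NT, *Tap2* gave 0.052 under quantile normalization, 0.058 at equal medians and -0.42 to 0.31 without one array. None of these passed. All other alternatives kept each member's sign. The causes were not tested.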
